A study of Mus musculus with 4 samples.

Results

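Immediate early genes are switched on within minutes of a signal or a stress, without new protein synthesis, and 10 of them were followed here across bone marrow cell types. They were taken by name, with earlier results of these data known, and they are 10 of the 18695 genes counted. *Fos*, *Fosb*, *Jun*, *Junb* and *Jund* encode subunits of AP-1, *Egr1*, *Ier2* and *Atf3* encode other rapidly induced nuclear proteins, and *Dusp1* and *Zfp36* encode feedback regulators. RNA was counted in single bone marrow cells of 1 *Tet2* KO mouse and 1 WT mouse. The *Tet2* KO mouse was *Tet2* fl/fl and carried Mx1-Cre, and the WT mouse was a *Tet2* fl/fl littermate that was negative for Mx1-Cre. Both mice received 4 intraperitoneal doses of pI:pC at 12.5 ug/g to switch on Cre, so the control was exposed to this interferon-inducing agent as well. Mx1 is an interferon-responsive promoter that is not particular to blood cells. From each mouse, granulocyte-monocyte progenitors (GMP, Lin- cKit+ Sca1- CD34+ CD16/32+) and a mixture of Lin- progenitors with CD11b+ myeloid cells (Lin-/CD11b+) were sorted, which gave 4 libraries of 1258 (GMP WT), 2719 (GMP *Tet2* KO), 1924 (Lin-/CD11b+ WT) and 3068 (Lin-/CD11b+ *Tet2* KO) cells. The methods describe age-matched young adult mice of both sexes.

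AP-1 is a pair of one Fos and one Jun protein, or of Jun with Jun or with an ATF protein, and binds short palindromic DNA sites. Transcription of these genes is driven by MAP kinases through SRF with its ETS partners at CArG boxes, and by CREB and ATF proteins at the site TGACGTCA. The products feed back, since DUSP1 dephosphorylates the MAP kinases and ZFP36, also called TTP, binds AU-rich mRNAs of cytokines and of immediate early genes and hastens their decay. In marrow, AP-1 is known for its part in monocyte and macrophage differentiation and EGR1 for its part in monocytic fate and in stem cell quiescence. The same genes are known to be induced while tissue is dissociated and sorted. All 4 libraries shared staining in the cold and flow sorting before capture, and the methods give no time from collection to capture.

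The promoters of 4 of the genes are shown. Those of the 2 feedback genes hold an exact control site of the kinds named above within 250 bases upstream, and those of *Fos* and *Junb* do not. Sites farther upstream and inexact copies were not searched, so the search does not show that *Fos* or *Junb* lacks such a site. They are the 150 bases upstream of the RefSeq start (GRCm38.p6, 5′ to 3′ on the strand of the gene), at chr12:85473740-85473889 (*Fos*, plus strand), chr8:84978749-84978898 (*Junb*, minus strand), chr17:26508473-26508622 (*Dusp1*, minus strand) and chr7:28379229-28379378 (*Zfp36*, minus strand). Capitals mark a TGACGTCA site in *Dusp1*, whose first base lies at -143 from the start, and a CArG box in *Zfp36* at -58.
Fos: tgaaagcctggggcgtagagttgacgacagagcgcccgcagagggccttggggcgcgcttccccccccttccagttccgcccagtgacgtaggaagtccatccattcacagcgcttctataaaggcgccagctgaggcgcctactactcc
Junb: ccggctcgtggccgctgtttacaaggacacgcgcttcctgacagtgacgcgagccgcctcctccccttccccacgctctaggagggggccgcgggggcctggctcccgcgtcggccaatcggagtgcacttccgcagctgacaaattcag
Dusp1: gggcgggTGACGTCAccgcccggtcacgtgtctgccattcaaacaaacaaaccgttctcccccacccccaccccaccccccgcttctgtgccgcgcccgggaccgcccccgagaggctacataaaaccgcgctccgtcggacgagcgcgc
Zfp36: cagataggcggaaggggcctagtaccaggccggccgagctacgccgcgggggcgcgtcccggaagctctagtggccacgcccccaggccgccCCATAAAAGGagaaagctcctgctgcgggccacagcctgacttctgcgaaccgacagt
Of the 10 genes, 8 had a promoter in the RefSeq table, and within 250 bases upstream only these 2 held an exact copy of TGACGTCA, TGACTCA or a CArG box on either strand. Among all 32851 promoters, the same windows held TGACGTCA in 1.79%, TGACTCA in 5.20% and a CArG box in 1.63%. A match is a string of letters and not a measured binding event.

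Cell types were assigned with limits on the UMI counts of marker genes, none of which is an immediate early gene, after each cell had been thinned to 5000 UMIs. A UMI is a molecular tag that counts 1 captured mRNA molecule. Levels are given as CPM, the UMIs of a gene per 1000000 UMIs summed over the cells of a library and type, with exact 95% Poisson intervals. Ratios of CPM carry exact 95% conditional binomial intervals, and shares of cells exact binomial ones, and all of them cover counting error only. Each genotype and sort has 1 library, so no difference could be tested against the spread between mice, and genotype cannot be told apart from the mouse or its preparation. In summed cells, fewer cells with a message and less message per cell cannot be told apart either, which is why shares of cells are given as well.

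Several facts of the libraries stand beside the results. The cell number table of the study lists the number of the WT Lin-/CD11b+ library under *Tet2* KO GMP and the reverse, and the assignment deposited with the cells was used. By markers, 0 of 2719 cells of the library labelled *Tet2* KO GMP and 179 of 1924 cells of that labelled WT Lin-/CD11b+ were lymphoid-like, as a GMP sort and a mixed sort would differ. *Tet2* was at 13.02 CPM (GMP WT), 17.0 CPM (GMP *Tet2* KO), 13.4 CPM (Lin-/CD11b+ WT) and 20.7 CPM (Lin-/CD11b+ *Tet2* KO), but 3′ reads need not lie in the deleted part and check nothing. *Xist*, an RNA of female cells, was at 1029, 1058, 1200 and 1309 CPM in the same order, so both mice were female. Median depth per cell was 18713, 15488, 11091.5 and 10417 UMIs in the same order, and 9.22%, 6.62%, 2.29% and 2.38% of cells had 5% or more mitochondrial UMIs. Summed markers of macrophages (6.94 to 9.04 CPM), erythroid cells (1.64 to 6.91 CPM) and megakaryocytes (7.10 to 12.1 CPM) were near 0 in every library. Only 37 barcodes occurred in more than 1 library. The make-up of cell types differed between genotypes, and its part in values over all cells of a sort was not tested. Basophil-like cells made up 7.87% of WT and 4.41% of *Tet2* KO GMP cells, with summed basophil markers at 834 and 467 CPM. DC-like cells made up 8.84% of WT and 12.3% of *Tet2* KO Lin-/CD11b+ cells, with summed DC markers at 2687 and 4127 CPM.

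Summed over the 10 genes, 1273.5 CPM (1259 to 1288) were counted in WT GMP cells and 789 CPM (781 to 798) in *Tet2* KO GMP cells. In the Lin-/CD11b+ sort the sum was 1933 CPM (1915 to 1951) in WT and 1395 CPM (1382 to 1407) in *Tet2* KO. The summed level was thus lower in the *Tet2* KO library of both sorts, by 1.61-fold in GMP and 1.39-fold in Lin-/CD11b+ cells. *Fos* and *Jun* made up most of the sum in each library, so it does not stand for each of the 10 genes. A cell type was compared between genotypes where each library of the sort held at least 50 of its cells, which gave 13 comparisons, and the sum was lower in *Tet2* KO in all 13. Its log2 ratio of *Tet2* KO over WT ranged from -0.82 (-0.85 to -0.78) in mono-biased GMP-like GMP-sorted cells to -0.05 (-0.16 to 0.05) in neutro-biased GMP-like Lin-/CD11b+ cells, and only the last of these 13 intervals reached 0.

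**Figure D1:**
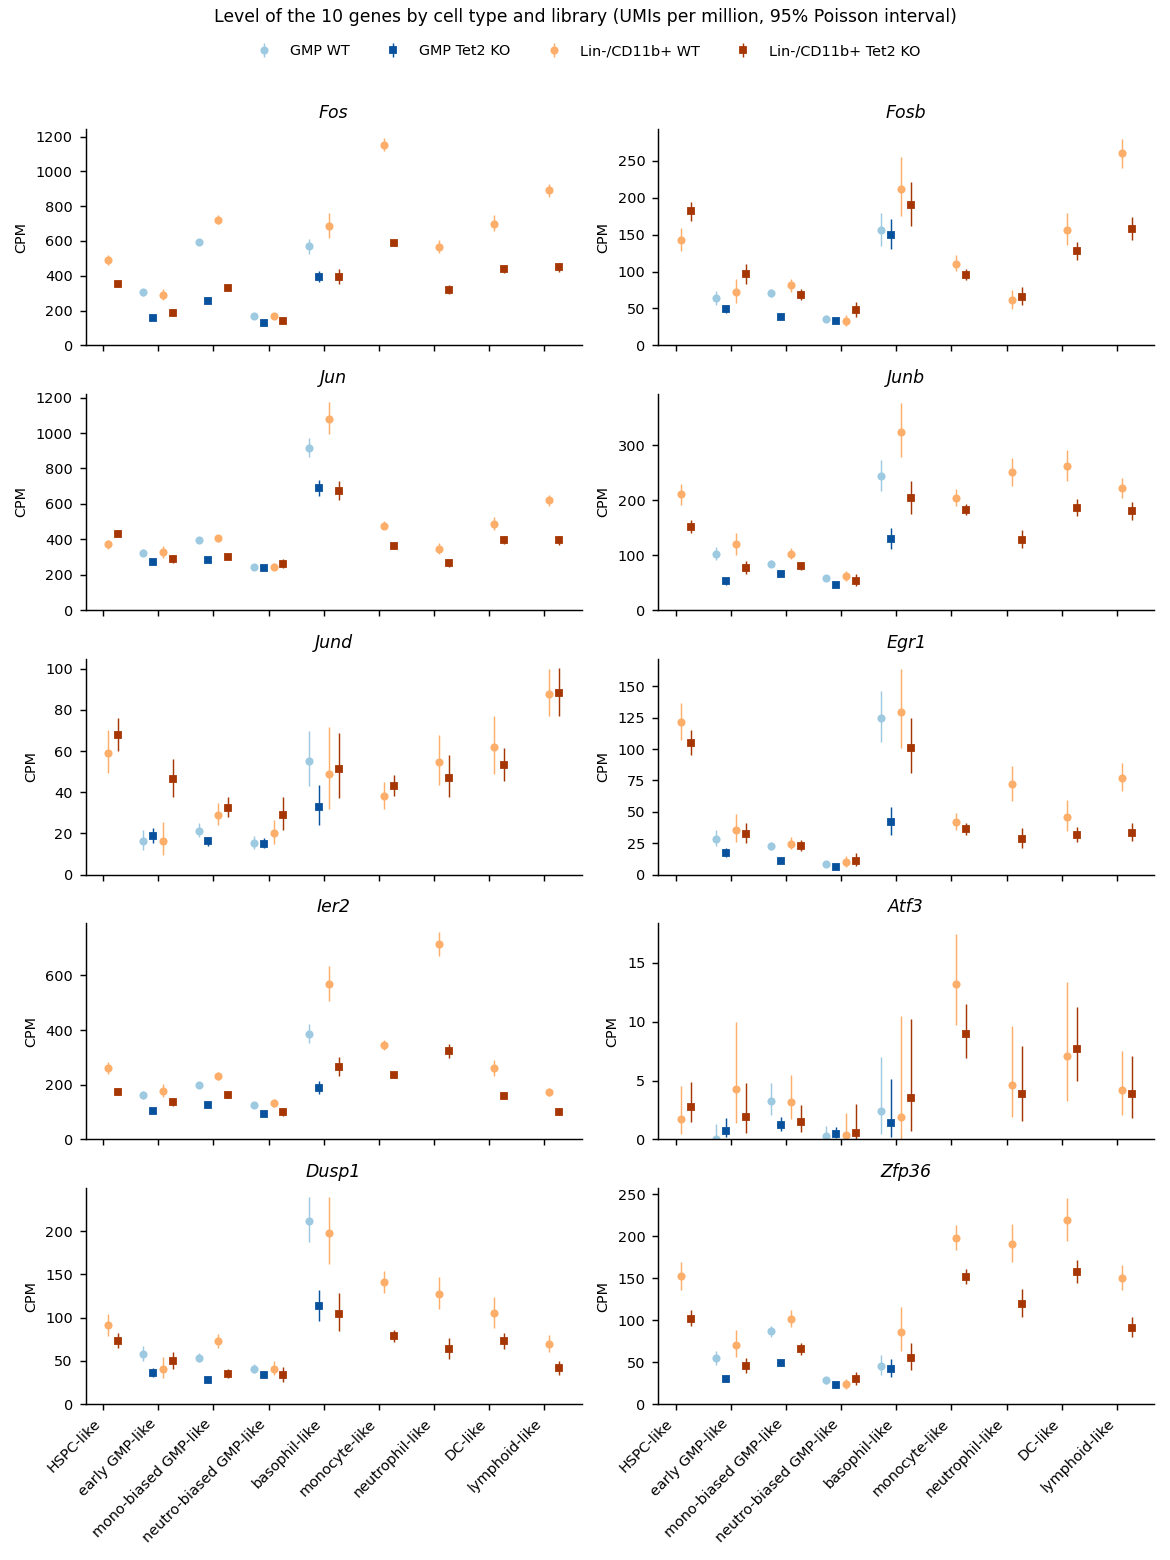
CPM of each gene (y axis, scale differs between panels) by cell type (x axis) in the 4 libraries, where points are levels of UMIs summed over cells and bars are 95% Poisson intervals. *Fos* in monocyte-like cells stood at 1154 CPM in WT and 588 CPM in *Tet2* KO, and neutro-biased GMP-like cells lay at the bottom of most panels with both genotypes close to each other.

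The size of the difference depended on cell type, and the number of the 10 genes that were at least 1.5-fold lower in *Tet2* KO is read against the share of all genes that were, among genes with at least 20 UMIs. Mono-biased GMP-like cells, progenitors with monocytic markers, gave 7 of 10 in the GMP sort (all genes 6.05%) and 4 of 10 in the Lin-/CD11b+ sort (all genes 5.19%). In early GMP-like cells the counts were 6 of 9 (all genes 8.39%) and 3 of 9 (all genes 7.59%), and in basophil-like cells 5 of 9 (all genes 11.0%) and 6 of 9 (all genes 10.3%). Mature types of the Lin-/CD11b+ sort gave 6 of 9 in neutrophil-like cells (all genes 4.46%), 7 of 10 in lymphoid-like cells (all genes 4.23%), 2 of 10 in monocyte-like cells (all genes 5.55%) and 2 of 10 in DC-like cells (all genes 11.3%). Lymphoid-like cells were gated on pooled markers of B, T and plasma cells, with a median depth of 13911 UMIs in WT and 10975 UMIs in *Tet2* KO. Whether their mix differed between the mice was not tested. Neutro-biased GMP-like cells, progenitors with early granule markers, gave 0 of 9 in either sort (all genes 6.47% in GMP and 6.45% in Lin-/CD11b+). HSPC-like cells, gated on stem cell markers with few progenitor UMIs, also gave 0 of 9 (all genes 5.29%). A count of 0 of 9 lies near these shares of all genes. In HSPC-like cells *Ier2* (260 CPM in WT, 174 CPM in *Tet2* KO) and *Zfp36* (152 and 102 CPM) lay just short of 1.5-fold lower. Over all cells of a sort, 7 of 10 were that much lower in GMP (all genes 6.75%) and 2 of 10 in Lin-/CD11b+ cells (all genes 4.35%). Only 1 gene, *Jund*, was at least 1.5-fold higher in any comparison, in early GMP-like Lin-/CD11b+ cells, where 9.10% of all genes were that much higher. The share of all genes at least 1.5-fold higher elsewhere was 5.02% in early, 4.09% in mono-biased and 4.58% in neutro-biased GMP-like and 7.70% in basophil-like cells of the GMP sort. In the Lin-/CD11b+ sort it was 9.26% in HSPC-like, 7.36% in mono-biased and 7.73% in neutro-biased GMP-like, 9.84% in monocyte-like, 10.0% in DC-like and 15.6% in basophil-like cells. Over all cells it was 3.12% in GMP and 8.38% in Lin-/CD11b+ cells.

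The median log2 ratio of the 10 genes stood below that of all genes in every comparison but 1. Within the GMP sort it was -0.84 against -0.02 for all genes in mono-biased GMP-like cells, -0.67 against -0.06 in early GMP-like cells and -0.76 against -0.01 in basophil-like cells. For neutro-biased GMP-like cells the medians were -0.33 and -0.05 with the GMP sort, and 0.11 and -0.00 with the Lin-/CD11b+ sort, the exception. Among genes with at least 100 UMIs, the medians of this exception were -0.04 for 8 of the genes and -0.03 for all genes. In neutrophil-like and lymphoid-like cells all genes had a median of 0.32 and 0.31, and 27.7% and 27.8% of them were at least 1.5-fold higher in *Tet2* KO. The 10 genes had medians of -0.83 and -0.72 in these cells. Scaling by TMM moved log2 ratios by -0.30 and -0.31 in these 2 types, so relative to the bulk of genes the members lay lower still there.

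**Figure D2:**
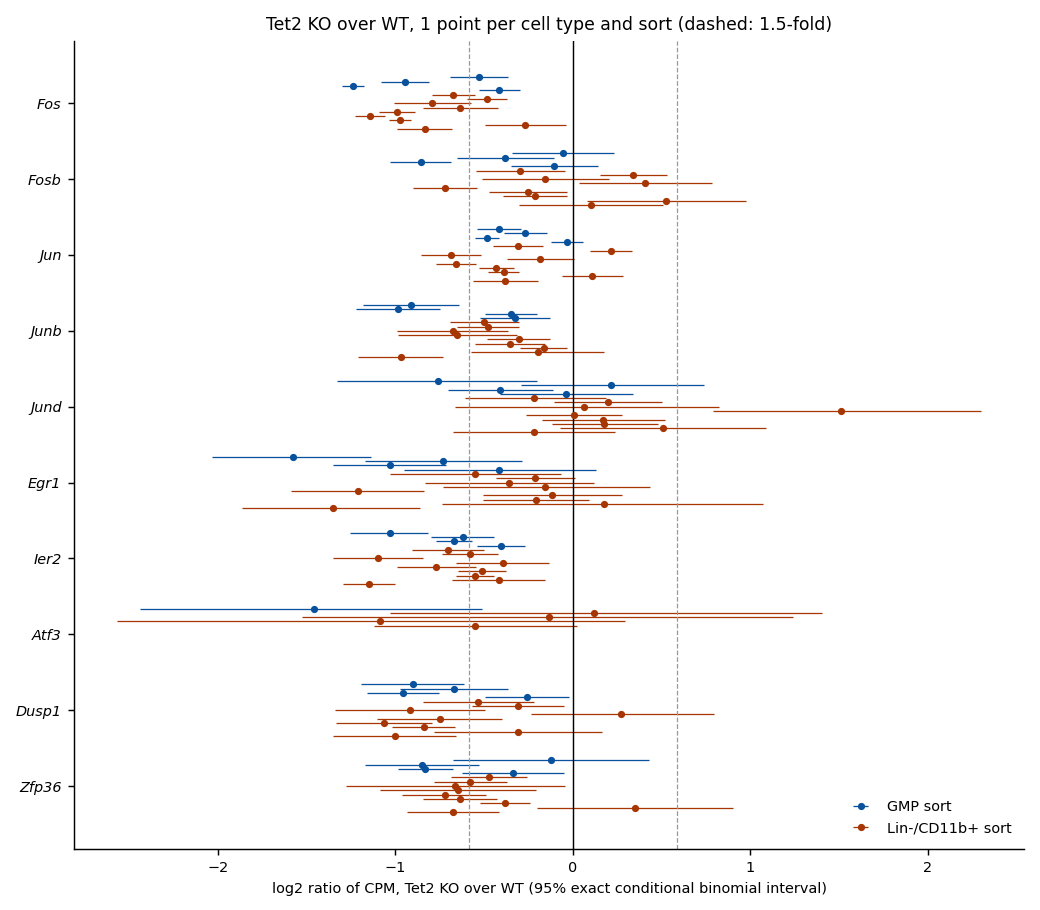
log2 ratio of CPM of *Tet2* KO over WT (x axis) for each gene (y axis), 1 point per cell type and sort with 95% conditional binomial intervals, for genes with at least 20 UMIs over both libraries, where dashed lines mark 1.5-fold. All 13 points of *Fos*, *Junb* and *Ier2* lie below 0, and those of *Fosb* and *Jund* lie on both sides.

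*Fos* encodes the inducible partner of the Jun proteins (chr12:85473890-85477273, plus strand, 4 exons, GRCm38). Its level was 398 CPM in GMP WT, 198 CPM in GMP *Tet2* KO, 652 CPM in Lin-/CD11b+ WT and 378 CPM in Lin-/CD11b+ *Tet2* KO, so both *Tet2* KO libraries lay below the WT library of either sort. Among mono-biased GMP-like GMP-sorted cells, 4583 UMIs (594 CPM) in WT stood against 3625 UMIs (252 CPM) in *Tet2* KO, a log2 ratio of -1.24 (-1.30 to -1.18) or 2.36-fold lower. In the Lin-/CD11b+ sort the same cells held 723 and 327 CPM, a log2 ratio of -1.14 (-1.23 to -1.06). Both preparations of each mouse thus gave a difference of more than 2-fold in this type. *Fos* in monocyte-like cells was at 1154 CPM in WT and 588 CPM in *Tet2* KO, a log2 ratio of -0.97 (-1.03 to -0.91), and in lymphoid-like cells at 890 and 448 CPM, a log2 ratio of -0.99 (-1.09 to -0.89). The smallest differences were in neutro-biased GMP-like cells, with log2 ratios of -0.41 (-0.53 to -0.30) and -0.27 (-0.50 to -0.04) in the 2 sorts. Over the 13 comparisons *Fos* was lower in all 13, at least 1.5-fold in 9, with a median log2 ratio of -0.79.

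The order of cell types by *Fos* level differed between genotypes mainly in its middle. In Lin-/CD11b+ WT cells, monocyte-like cells stood highest (1154 CPM), followed by lymphoid-like cells (890 CPM), then by mono-biased GMP-like (723 CPM), DC-like (700 CPM) and basophil-like cells (684 CPM), whose neighbouring intervals overlapped. Neutrophil-like (567 CPM), HSPC-like (489 CPM), early GMP-like (291 CPM) and neutro-biased GMP-like cells (167 CPM) followed, each apart from the next by its interval. In Lin-/CD11b+ *Tet2* KO cells, monocyte-like cells (588 CPM) were still first, and early GMP-like (188 CPM) and neutro-biased GMP-like cells (138 CPM) still last. The 6 types between them spanned 448 CPM in lymphoid-like to 318 CPM in neutrophil-like cells, and neighbours overlapped throughout. In the WT GMP sort mono-biased GMP-like cells (594 CPM) and basophil-like cells (569 CPM) overlapped at the top, whereas in the *Tet2* KO GMP sort basophil-like cells (394 CPM) stood clear of mono-biased GMP-like cells (252 CPM).

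As a share of cells with at least 1 *Fos* UMI at equal depth of 5000 UMIs, mono-biased GMP-like cells of the GMP sort gave 83.7% in WT and 58.4% in *Tet2* KO, and those of the Lin-/CD11b+ sort 86.7% and 67.4%. Monocyte-like cells gave 94.8% and 84.4%. Both the share of cells and the level were therefore lower in *Tet2* KO. Without thinning, over all cells, 89.7% and 73.1% of GMP cells and 89.8% and 81.1% of Lin-/CD11b+ cells had a *Fos* UMI. No cell type in these libraries is known to lack the 10 genes, so the part of free RNA in such shares could not be measured.

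*Fosb*, a second Fos family subunit, was lower in *Tet2* KO with *Fos* in some types and not in others. Its level was 63.9 CPM in GMP WT, 42.9 CPM in GMP *Tet2* KO, 113 CPM in Lin-/CD11b+ WT and 107 CPM in Lin-/CD11b+ *Tet2* KO, so that the libraries of a sort differed in GMP and lay close in Lin-/CD11b+. *Fosb* in mono-biased GMP-like GMP-sorted cells was at 70.7 CPM in WT and 39.0 CPM in *Tet2* KO, a log2 ratio of -0.86 (-1.03 to -0.68), and in lymphoid-like cells at 260 and 158 CPM, a log2 ratio of -0.72 (-0.90 to -0.54). *Fosb* was higher in *Tet2* KO in HSPC-like cells, at 181 against 143 CPM, a log2 ratio of 0.34 (0.15 to 0.53), and in neutro-biased GMP-like Lin-/CD11b+ cells, a log2 ratio of 0.53 (0.08 to 0.98). It was lower in 9 and higher in 4 of the 13 comparisons, with 2 at least 1.5-fold lower. HSPC-like cells are a case where the members diverged, since *Fos* in them was at 489 CPM in WT and 350 CPM in *Tet2* KO, a log2 ratio of -0.48 (-0.59 to -0.37).

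The 3 Jun genes encode the obligate partners of the Fos proteins, and JUN is the subunit activated by JNK. *Jun* (chr4:95049034-95052222, minus strand, 1 exon) was at 363 CPM in GMP WT, 279 CPM in GMP *Tet2* KO, 420 CPM in Lin-/CD11b+ WT and 352 CPM in Lin-/CD11b+ *Tet2* KO. The WT library was the higher of each sort, with less distance between genotypes than for *Fos*. Basophil-like cells held the most *Jun* in each of the 4 libraries, at 917, 688, 1082 and 673 CPM in the order above, apart from the next type by interval in each. The log2 ratio in these cells was -0.41 (-0.54 to -0.29) for the GMP and -0.69 (-0.85 to -0.52) for the Lin-/CD11b+ library pair. In neutro-biased GMP-like cells *Jun* was nearly level between genotypes, at 246 CPM in WT and 240 CPM in *Tet2* KO in the GMP sort. In HSPC-like cells it was higher in *Tet2* KO, at 430 against 371 CPM, a log2 ratio of 0.22 (0.10 to 0.33). *Jun* was lower in 11 of 13 comparisons and at least 1.5-fold lower in 2, basophil-like and lymphoid-like Lin-/CD11b+ cells.

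*Junb*, a subunit known to restrain myeloid growth, was at 91.6 CPM in GMP WT, 58.7 CPM in GMP *Tet2* KO, 167 CPM in Lin-/CD11b+ WT and 131 CPM in Lin-/CD11b+ *Tet2* KO. It was lower in *Tet2* KO in all 13 comparisons and at least 1.5-fold lower in 5. The largest differences were in early GMP-like cells of the GMP sort, at 103 CPM in WT and 52.0 CPM in *Tet2* KO with a log2 ratio of -0.98 (-1.22 to -0.75), and in neutrophil-like cells, at 251 and 128 CPM with a log2 ratio of -0.97 (-1.21 to -0.73). In monocyte-like cells, where *Fos* differed most among mature myeloid cells, *Junb* was at 205 CPM in WT and 183 CPM in *Tet2* KO, a log2 ratio of -0.16 (-0.30 to -0.03). A large difference in *Fos* thus came without one in *Junb* in monocyte-like cells, whereas both genes were at least 1.5-fold lower in early GMP-like cells of the GMP sort and in neutrophil-like cells.

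*Jund* encodes the Jun protein that is expressed most steadily and is the least inducible. It was at 20.9 CPM in GMP WT, 17.0 CPM in GMP *Tet2* KO, 43.8 CPM in Lin-/CD11b+ WT and 48.9 CPM in Lin-/CD11b+ *Tet2* KO, which puts the *Tet2* KO library below WT in 1 sort and above it in the other. It was lower in 5 and higher in 8 of 13 comparisons, with a median log2 ratio of 0.07. In lymphoid-like cells, where it was highest in both Lin-/CD11b+ libraries, it was at 87.9 CPM in WT and 88.2 CPM in *Tet2* KO, a log2 ratio of 0.00 (-0.27 to 0.27). *Jund* in basophil-like cells of the GMP sort was lower in *Tet2* KO, with 46 against 69 UMIs and a log2 ratio of -0.76 (-1.33 to -0.20). In early GMP-like Lin-/CD11b+ cells it was higher, at 46.2 CPM (99 UMIs) against 16.2 CPM (19 UMIs) in WT, a log2 ratio of 1.51 (0.79 to 2.30).

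*Egr1*, a zinc finger factor (chr18:34859823-34864984, plus strand, 3 exons), was at 28.1 CPM in GMP WT, 12.2 CPM in GMP *Tet2* KO, 50.9 CPM in Lin-/CD11b+ WT and 41.9 CPM in Lin-/CD11b+ *Tet2* KO. The GMP *Tet2* KO library stood clearly lowest. Basophil-like and HSPC-like cells held the most *Egr1*, at 130 and 121 CPM in Lin-/CD11b+ WT and at 101 and 105 CPM in Lin-/CD11b+ *Tet2* KO, with overlapping intervals between these 2 types in both. The genotype difference ran from none that could be told from counting error to the largest among the 10 genes. In basophil-like cells of the GMP sort *Egr1* was at 125 CPM in WT and 41.8 CPM in *Tet2* KO, a log2 ratio of -1.58 (-2.03 to -1.14) or 2.98-fold lower, and the share of cells with a UMI at 5000 UMIs per cell was 47.5% and 17.5%. The same type in the Lin-/CD11b+ sort had 130 and 101 CPM, a log2 ratio of -0.36 (-0.83 to 0.12). Neutrophil-like cells, with 71.9 CPM in WT and 28.1 CPM in *Tet2* KO, were 2.55-fold lower in *Tet2* KO, and lymphoid-like cells, with 77.2 and 33.4 CPM, 2.31-fold lower. In HSPC-like cells the log2 ratio was -0.21 (-0.43 to 0.01). Neutro-biased GMP-like cells held the least, and at 5000 UMIs 5.5%, 3.1%, 2.5% and 4.8% of them had an *Egr1* UMI, in the order of the libraries above. Shares of this size cannot be told apart from free RNA.

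*Ier2*, a small nuclear protein of the immediate early response, gave the most even picture. It was at 181 CPM in GMP WT, 111 CPM in GMP *Tet2* KO, 267 CPM in Lin-/CD11b+ WT and 175 CPM in Lin-/CD11b+ *Tet2* KO, and it was lower in *Tet2* KO in all 13 comparisons with log2 ratios from -1.15 to -0.39. None of these 13 intervals reached 0. Neutrophil-like cells held the most, at 713 CPM in WT and 322 CPM in *Tet2* KO, or 2.22-fold lower. At equal depth, 89.7% and 77.5% of these cells had an *Ier2* UMI. Basophil-like cells followed with 567 and 265 CPM in the Lin-/CD11b+ sort, overlapping neutrophil-like cells in *Tet2* KO only, a log2 ratio of -1.10 (-1.35 to -0.85), and 387 and 189 CPM in the GMP sort, a log2 ratio of -1.03 (-1.25 to -0.81).

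*Atf3*, a stress-induced ATF protein that pairs with Jun proteins, was close to the limit of detection. It was at 1.79 CPM (41 UMIs) in GMP WT, 0.82 CPM (35 UMIs) in GMP *Tet2* KO, 4.59 CPM (104 UMIs) in Lin-/CD11b+ WT and 4.03 CPM (137 UMIs) in Lin-/CD11b+ *Tet2* KO. Monocyte-like cells held the most, at 13.2 CPM (48 UMIs) in WT and 8.99 CPM (62 UMIs) in *Tet2* KO, a log2 ratio of -0.55 (-1.12 to 0.02). Only 5 of the 13 comparisons had 20 or more *Atf3* UMIs, and of these only mono-biased GMP-like cells of the GMP sort, with 25 UMIs in WT and 17 in *Tet2* KO, had an interval short of 0, at -1.46 (-2.44 to -0.51).

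Both feedback genes were lower in the *Tet2* KO library of each sort. *Dusp1*, the nuclear MAP kinase phosphatase whose TGACGTCA site is shown above, was at 64.6 CPM in GMP WT, 34.5 CPM in GMP *Tet2* KO, 85.5 CPM in Lin-/CD11b+ WT and 58.0 CPM in Lin-/CD11b+ *Tet2* KO. *Dusp1* in mono-biased GMP-like cells was at 53.3 CPM in WT and 27.4 CPM in *Tet2* KO in the GMP sort, a log2 ratio of -0.96 (-1.16 to -0.76), and at 72.8 and 34.8 CPM in the Lin-/CD11b+ sort, a log2 ratio of -1.06 (-1.34 to -0.79). At equal depth, 22.9% of WT and 13.3% of *Tet2* KO cells of this type had a *Dusp1* UMI in the GMP sort, and 26.9% and 14.2% in the other. *Dusp1* was 2.00-fold lower in neutrophil-like cells, at 127 and 63.5 CPM. It was at least 1.5-fold lower in 8 of 13 comparisons, lower in 12, and higher in early GMP-like Lin-/CD11b+ cells, where 106 and 48 UMIs gave a log2 ratio of 0.27 (-0.23 to 0.79).

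*Zfp36*, the mRNA decay factor with the CArG box, was at 59.5 CPM in GMP WT, 35.4 CPM in GMP *Tet2* KO, 129 CPM in Lin-/CD11b+ WT and 99.4 CPM in Lin-/CD11b+ *Tet2* KO, with WT the higher library of each sort. DC-like cells (219 CPM in WT, 158 CPM in *Tet2* KO) and monocyte-like cells (198 and 152 CPM) held the most, and their intervals overlapped within each library, as did that of neutrophil-like cells (191 CPM) in WT. The log2 ratio was -0.85 (-1.17 to -0.53) in early and -0.83 (-0.99 to -0.68) in mono-biased GMP-like GMP-sorted cells, -0.67 (-0.93 to -0.41) in neutrophil-like and -0.38 (-0.52 to -0.24) in monocyte-like cells. *Zfp36* was lower in 12 of 13 comparisons and at least 1.5-fold lower in 7. In basophil-like cells of the GMP sort, where *Egr1* was 2.98-fold lower, 57 UMIs in WT (45.6 CPM) and 59 UMIs in *Tet2* KO (41.8 CPM) gave a log2 ratio of -0.12 (-0.67 to 0.43).

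Depth and mitochondrial share differed between the GMP libraries and were looked at beside these results. Among cells of 10000 to 20000 UMIs the summed level of the 10 genes was 1319 CPM in WT (581 cells) and 773 CPM in *Tet2* KO (1959 cells) in the GMP sort, and 1748 CPM (997 cells) and 1224 CPM (1540 cells) in the Lin-/CD11b+ sort. Among cells under 5% mitochondrial UMIs it was 1271 and 786 CPM, and 1935 and 1397 CPM. The sum was thus lower in *Tet2* KO within the depth range and within cells of low mitochondrial share, as over all cells. These sums pool cell types, and the depth range was chosen after seeing the data. The part of depth or mitochondrial share in the difference was not tested.

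Number of genes per cell gave the same picture at equal depth. A mono-biased GMP-like cell of the GMP sort held UMIs of a median of 3 of the 10 genes in WT and of 2 in *Tet2* KO, and 0.71% (0.15 to 2.05%) and 6.58% (5.02 to 8.44%) of cells held none. The share with 5 or more of the 10 was 27.4% (23.2 to 31.9%) in WT and 11.7% (9.60 to 14.0%) in *Tet2* KO. In the Lin-/CD11b+ sort 38.1% (32.5 to 43.9%) and 23.5% (19.3 to 28.2%) of these cells held 5 or more. The whole distribution lay lower in *Tet2* KO, with no separate group of cells at either end. In basophil-like cells of the GMP sort 71.7% and 30.8% held 5 or more, in monocyte-like cells 56.8% and 45.6%, and in neutro-biased GMP-like cells of the GMP sort 5.79% and 6.67%. The last type differed instead at the low end, where 7.32% of WT and 15.2% of *Tet2* KO cells held none.

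**Figure D3:**
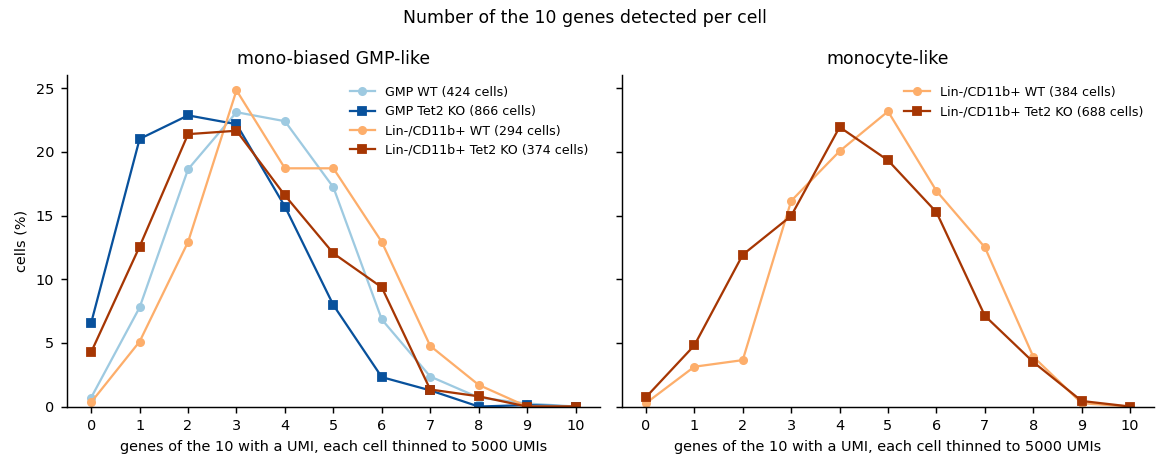
Share of cells (y axis, percent) by the number of the 10 genes with a UMI (x axis) after each cell was thinned to 5000 UMIs, in mono-biased GMP-like cells (left) and monocyte-like cells (right), 1 line per library. The *Tet2* KO lines are shifted to the left, with 6.58% of *Tet2* KO and 0.71% of WT mono-biased GMP-like cells of the GMP sort at 0.

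*Fos* was spread unevenly over cells. At 5000 UMIs per cell, the tenth of mono-biased GMP-like cells with most *Fos* held 30.1% of its UMIs in WT and 41.6% in *Tet2* KO in the GMP sort, and 28.0% and 34.0% in the Lin-/CD11b+ sort. Lower mean counts concentrate in fewer cells by sampling alone, so these shares cannot be told apart from the lower level. The genes were found together in cells slightly more often than their single shares would give. *Fos* and *Jun* in mono-biased GMP-like GMP-sorted cells were both detected in 63.9% of WT cells against 62.6% from the product of their shares, and in 41.6% of *Tet2* KO cells against 37.8%. Over the 37 pairs with enough cells in WT the ratio of observed to expected had a median of 1.09, and over 35 pairs in *Tet2* KO a median of 1.20. All these cells share a library, and the values are a description.

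The same cell types were present in 2 sorts of each mouse, which shows how far the levels of 1 cell type differed between 2 preparations. Over all cells the GMP sort held less of most of the 10 genes than the Lin-/CD11b+ sort, with 7 of 10 at least 1.5-fold lower in WT (all genes 14.8%) and 9 of 10 in *Tet2* KO (all genes 24.8%), beside a different make-up of cell types. Within types of the WT mouse, 0 of 9 in early GMP-like (all genes 6.82%), 0 of 10 in mono-biased GMP-like (all genes 4.78%), 0 of 9 in neutro-biased GMP-like (all genes 4.14%) and 1 of 9 in basophil-like cells (all genes 8.66%) were that much lower in the GMP sort. The exception was *Zfp36* in basophil-like cells. Within types of the *Tet2* KO mouse the counts were 3 of 9 in early GMP-like (all genes 10.5%), 3 of 10 in mono-biased GMP-like (all genes 8.02%), 2 of 9 in neutro-biased GMP-like (all genes 8.19%) and 3 of 9 in basophil-like cells (all genes 10.5%).

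*Jund* and *Egr1* made up most of the *Tet2* KO counts. *Jund* in mono-biased GMP-like cells was at 16.1 CPM in the GMP and 32.6 CPM in the Lin-/CD11b+ sort of the *Tet2* KO mouse, a log2 ratio of GMP over Lin-/CD11b+ of -1.02 (-1.31 to -0.72), and at 21.4 and 28.9 CPM in the WT mouse, -0.43 (-0.78 to -0.08). *Egr1* in the same cells was at 11.0 and 22.8 CPM in *Tet2* KO, a log2 ratio of -1.05 (-1.40 to -0.70), and at 22.6 and 24.8 CPM in WT, -0.13 (-0.50 to 0.24). *Fosb* in early GMP-like cells gave -0.97 (-1.23 to -0.70) in *Tet2* KO and -0.18 (-0.56 to 0.21) in WT. In early and mono-biased GMP-like cells, these 3 genes thus had a higher ratio of *Tet2* KO over WT in the Lin-/CD11b+ sort than in the GMP sort. *Fos* and *Jun* differed little between sorts, with log2 ratios in mono-biased GMP-like cells of -0.38 (-0.46 to -0.29) and -0.10 (-0.18 to -0.01) in *Tet2* KO, and of -0.28 (-0.35 to -0.21) and -0.04 (-0.13 to 0.04) in WT. In mono-biased GMP-like cells the distance between the sorts of the *Tet2* KO mouse was therefore below the genotype difference for *Fos*, and of the same size or larger for *Egr1* and *Jund*.

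**Figure D4:**
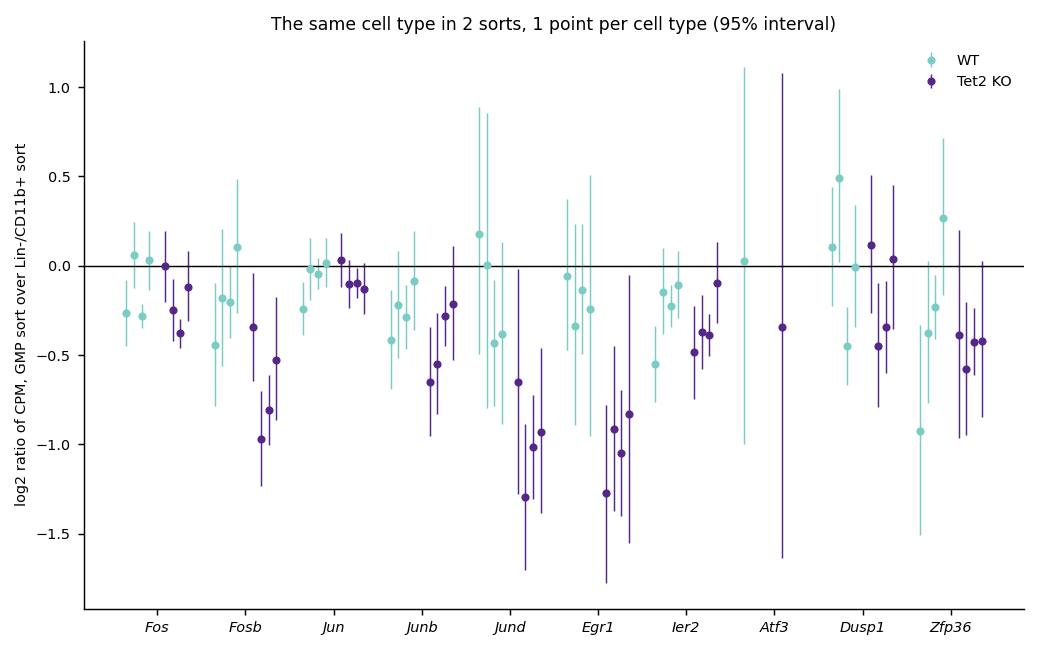
log2 ratio of CPM of the GMP over the Lin-/CD11b+ sort (y axis) for each gene (x axis), 1 point per cell type and mouse with 95% conditional binomial intervals. In *Tet2* KO the points of *Jund* lie between -1.29 and -0.65 and those of *Egr1* between -1.27 and -0.83, and the points of *Jun* lie near 0 in both mice.

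Other genes of the pathway were grouped in 6 lists and described by counts and medians. The other AP-1 and CNC-bZIP genes (*Batf*, *Maf* and *Atf* families and their relatives) had a median log2 ratio of -0.07 over all GMP cells, beside -0.06 over all genes. Of 14, 1 was at least 1.5-fold lower (all genes 6.75%) and 1 higher (all genes 3.12%). Over all Lin-/CD11b+ cells the median was 0.30, beside 0.09 over all genes, with 0 of 15 lower (all genes 4.35%) and 4 higher (all genes 8.38%). Among the 4, *Maf*, a macrophage-associated bZIP factor, was at 0.62 CPM in WT and 2.79 CPM in *Tet2* KO, and *Batf3*, a dendritic cell factor, at 5.42 and 11.9 CPM, beside the higher share of DC-like cells in *Tet2* KO. MAP kinases, their upstream kinases, SRF and its partners had medians of -0.08 in GMP, where 0 of 20 were past 1.5-fold in either direction, and 0.21 in Lin-/CD11b+ cells, where again 0 of 20 were. *Mapk8*, which encodes the JUN kinase JNK1, was at 12.7 CPM in WT and 10.9 CPM in *Tet2* KO GMP cells, and *Mapk3*, which encodes ERK1, at 32.5 and 37.8 CPM. By cell type, 9 of 19 genes of this upstream list were at least 1.5-fold higher in lymphoid-like cells (all genes 27.8%), with a median of 0.56 against 0.31 for all genes, and 5 of 15 in neutrophil-like cells (all genes 27.7%), with 0.38 against 0.32. No gene of it was that much lower in either type.

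Other immediate early genes went only partly with the 10. Over all GMP cells 7 of 27 were at least 1.5-fold lower (all genes 6.75%) and 0 higher (all genes 3.12%), with a median of -0.28. Over all Lin-/CD11b+ cells 3 of 29 were lower (all genes 4.35%) and 1 higher (all genes 8.38%), with a median of 0.03. *Nr4a1*, an orphan nuclear receptor of monocyte development, was at 3.80 CPM in WT and 1.10 CPM in *Tet2* KO GMP cells, a log2 ratio of -1.78 (-2.33 to -1.26), and at 12.8 and 6.08 CPM in Lin-/CD11b+ cells, -1.08 (-1.34 to -0.81). *Ier3*, a survival gene, was at 57.8 and 19.9 CPM in GMP cells, -1.53 (-1.66 to -1.41), and was lower in 11 of 13 comparisons by type. *Klf4*, a monocytic factor, was at 20.9 CPM in WT and 23.7 CPM in *Tet2* KO GMP cells. In monocyte-like cells 2 of 24 of the list were lower (all genes 5.55%) and 5 higher (all genes 9.84%). The higher ones included *Ier5*, at 15.1 CPM in WT and 31.2 CPM in *Tet2* KO, and *Zfp36l1*, a relative of *Zfp36*, at 4.94 and 16.1 CPM. The median of the list in monocyte-like cells was 0.23, beside 0.04 over all genes, whereas *Fos* and *Dusp1* were lower there.

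Over all cells of both sorts, the list of mRNAs known to be bound by ZFP36 was lower in *Tet2* KO, as was *Zfp36* itself. Over all GMP cells 4 of 5 were at least 1.5-fold lower with a median of -1.18 (all genes 6.75%), and over all Lin-/CD11b+ cells 5 of 7 with a median of -0.79 (all genes 4.35%). Beside the lower share of basophil-like cells given above, the list summed to 733 CPM in WT basophil-like GMP cells and to between 34.8 and 88.9 CPM in the other WT types of that sort. Within types of the GMP sort, 4 of 4 were that much lower in basophil-like cells (all genes 11.0%). In early GMP-like cells 4 of 4 were (all genes 8.39%), and in mono-biased GMP-like cells 4 of 5 (all genes 6.05%). *Ccl4*, a chemokine, was at 16.1 CPM in WT and 4.37 CPM in *Tet2* KO GMP cells, and *Ccl3*, its neighbour in the genome, at 37.9 and 15.6 CPM in Lin-/CD11b+ cells. In monocyte-like cells *Ccl3* was at 90.9 and 25.7 CPM, a log2 ratio of -1.83 (-2.10 to -1.56). *Tnf* was closer, at 6.90 CPM in WT and 5.66 CPM in *Tet2* KO GMP cells and 12.5 and 10.3 CPM in Lin-/CD11b+ cells. *Ccl4* was at least 1.5-fold lower in 11 of 13 comparisons by type and higher in 2, and *Ier3*, which is in this list too, in 9. In neutro-biased GMP-like cells of the GMP sort, the median of the list was 0.37, with 1 of 5 lower (all genes 6.47%) and 1 higher (all genes 4.58%). The sum of the list was higher in *Tet2* KO only in lymphoid-like cells, at 28.0 CPM against 24.5 CPM in WT, a log2 ratio of 0.19 (-0.31 to 0.70). *Zfp36* in these cells was at 151 CPM in WT and 91.3 CPM in *Tet2* KO.

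The list of heat shock genes held both inducible and constitutive chaperones. The list had a median of 0.07 over all GMP cells (0 of 13 lower, 2 higher) and of 0.12 over all Lin-/CD11b+ cells (0 of 14 lower, 2 higher), and its summed level was 7187 CPM in WT and 7140 CPM in *Tet2* KO GMP cells, and 5239 and 5385 CPM in Lin-/CD11b+ cells. The 2 higher genes were *Hspa1a*, at 3.41 CPM in WT and 11.5 CPM in *Tet2* KO GMP cells and at 2.82 and 11.1 CPM in Lin-/CD11b+ cells, and *Hspa1b*, at 0.57 and 2.80 CPM and at 0.53 and 2.76 CPM. They encode near-identical inducible HSP70 proteins, and reads may be split between them. *Hspa1a* was higher in *Tet2* KO in 7 of 7 comparisons by type that had 20 UMIs, with log2 ratios from 1.02 to 2.37. *Dnajb1*, another inducible chaperone, was at 46.8 CPM in WT and 40.9 CPM in *Tet2* KO GMP cells, and *Hspa8*, the constitutive HSP70, at 1966 and 1741 CPM. The part of handling in the levels of the 10 genes was not tested.

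Of the 10 housekeeping genes, 0 were past 1.5-fold over all cells of either sort, with medians of 0.03 in GMP and 0.02 in Lin-/CD11b+ cells.

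**Figure D5:**
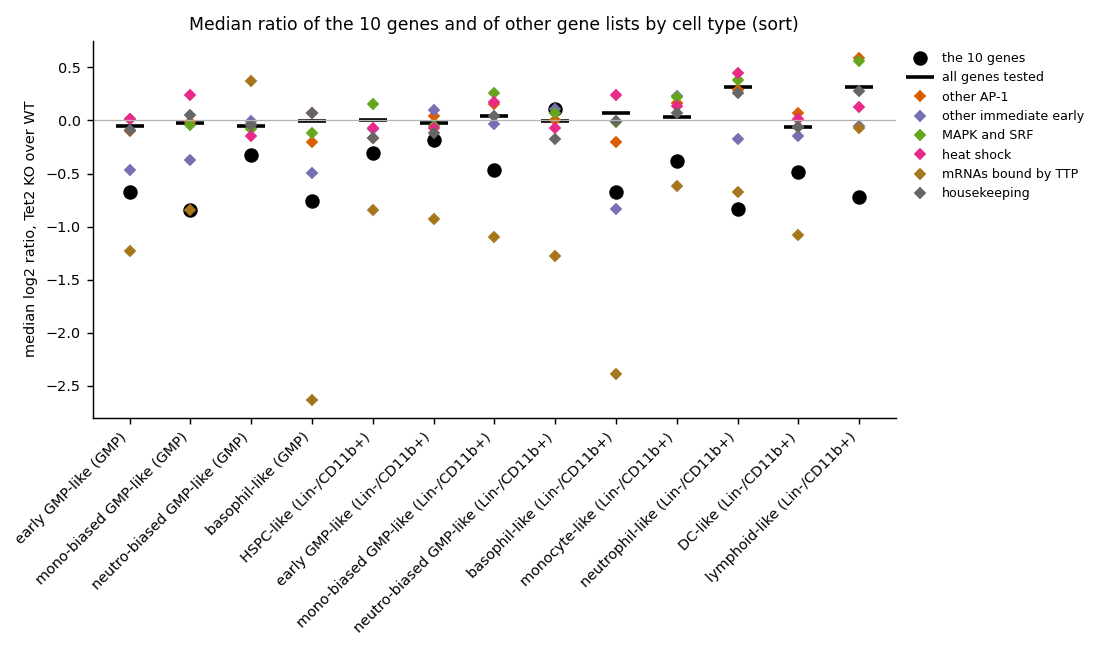
Median log2 ratio of CPM of *Tet2* KO over WT (y axis) of the 10 genes, of all genes tested and of the 6 lists, by cell type and sort (x axis). The 10 genes lie below all genes except in neutro-biased GMP-like Lin-/CD11b+ cells, and the list of mRNAs bound by ZFP36 (TTP) lies lowest in most types on 2 to 6 genes each.

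Across the 26 sums of a library and a cell type, genes much like the 10 were looked up among 4150 genes with a mean of at least 20 CPM, by Pearson's r of log2(CPM + 10). Among the nearest to the summed CPM of the 10 genes were *Klf6* (r = 0.90), *Hist1h1c* (r = 0.86), *Btg2* (r = 0.84) and *Ccng2* (r = 0.80). *Sh3glb1* (r = 0.82), *Klf6* (r = 0.80), *Adgre5* (r = 0.79) and *Btg2* (r = 0.79) were among the nearest to *Fos*. The 26 sums share 4 libraries and 2 mice, and the values are a description. *Klf6*, a zinc finger factor, ranged from 13.5 to 220 CPM over the sums.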

How the data were processed

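Single-cell RNA-seq counts of 8969 cells were used as the authors deposited them, as UMI counts per gene and cell together with the library of each cell. Per the labels, Cell Ranger 3.1.0, Seurat and mm10 were named in the submitters' processing notes. The methods name a v2 kit and the series' design text v3.1, and they state a filter of under 5% mitochondrial UMIs, which 413 deposited cells do not pass. The 10 genes and the lists were chosen with earlier results of these data known, and the gate limits after marker levels had been seen. Gates on marker UMIs, after thinning every cell to 5000 UMIs (lowest cell 5003), gave 9 cell types, and 78.6% of 7435 cells had the same name by 16 Leiden clusters. Only 79.0% of cells kept their gate after a second random thinning, which limits every value by cell type. Of the HSPC-like cells, 501 fell in the cluster named HSPC-like, 101 in a cluster named DC-like and 35 in the cluster named basophil-like. Of 3053 mono-biased GMP-like or monocyte-like cells, 216 lay within 5 UMIs of the progenitor limit that parts them and 346 at the monocytic limit. No doublet caller was run, and leaving out the 5% of cells with most UMIs was tried instead. UMIs were summed per library and type (at least 50 cells) and divided by library totals of 22681380 to 42561110 UMIs over all cells, or by the totals of the summed cells within a type. Genes with at least 20 UMIs over both sums entered counts past 1.5-fold. All 10 genes were named, and of each list the 2 highest and 2 lowest ratios of CPM + 1 per comparison. Likeness left out the 10 genes and took the 5 genes of highest r, of which 1 is not reported here. Alternatives were Leiden clusters, TMM (edgeR 4.0.16, used only for scaling), a mean over cells, leaving out cells of high mitochondrial share or of most UMIs, other limits on counts and folds, and the other sort. The calculation was tested on simulated data. Python 3.11.15, numpy 2.4.6, scipy 1.17.1, pandas 2.3.3, scanpy 1.11.5, leidenalg 0.10.2, igraph 0.11.9, scikit-learn 1.9.0, matplotlib 3.10.9 and R 4.3.3 were used.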

Additional observations from a re-analysis of the deposited data

Results flagged for a closer look

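*Jund* in early GMP-like Lin-/CD11b+ cells was higher in *Tet2* KO, with a log2 ratio of 1.51 (0.79 to 2.30) from 99 UMIs against 19 UMIs in WT, while it was at least 1.5-fold lower in 1 other comparison, basophil-like cells of the GMP sort, at -0.76 (-1.33 to -0.20). The difference between these effects was not tested.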

How the results depend on the processing

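Of 108 alternative counts of the 10 genes, 88 were within 1.5 times the reported count. At a limit of 2-fold the counts became 0 in early GMP-like, 3 in mono-biased GMP-like and 2 in basophil-like cells of the GMP sort, and 0 in monocyte-like, 3 in neutrophil-like, 0 in DC-like and 1 in lymphoid-like cells. The other sort gave 3 in early and 4 in mono-biased GMP-like cells. It turned the direction of *Dusp1* in early GMP-like cells (log2 ratio 0.27) and of *Jund* in basophil-like cells (log2 ratio 0.065). Further values changed sign between the sorts. *Fosb* in early GMP-like cells was at 64.0 CPM in WT and 49.2 CPM in *Tet2* KO in the GMP sort. In the Lin-/CD11b+ sort it was at 72.6 and 96.2 CPM. Neutro-biased GMP-like cells had sign changes for *Fosb*, *Jun*, *Jund*, *Egr1* and *Zfp36*, and mono-biased ones for *Jund*. In neutro-biased GMP-like cells of the GMP sort the count was 2 without the 5% of cells with most UMIs of the 10 genes and 1 in cells of 10000 to 20000 UMIs, a range chosen after seeing the data. In HSPC-like cells it was 1 by the mean over cells, 1 without cells of 5% or more mitochondrial UMIs, 2 without the 5% of cells with most UMIs and 4 in that UMI range. In monocyte-like cells it was 4 with TMM scaling and 4 in that UMI range. Between sorts, Leiden clusters gave 1 in WT early GMP-like and 1 in *Tet2* KO basophil-like cells, and TMM 2 in WT basophil-like cells. The cause of these changes was not tested. The share of all genes under these alternatives is not given here, so these counts cannot be read against it. Leaving the other sort aside, *Fos*, *Junb*, *Egr1*, *Ier2*, *Dusp1* and *Zfp36* were lower in *Tet2* KO in 79 of 79 alternative values each over 9 comparisons, *Jun* in 69, *Fosb* in 62 and *Jund* in 47. The UMI range left under 50 cells in basophil-like cells of the GMP sort and in DC-like cells. No paired analysis was possible because every library carries the same replicate number and no test was run, and no replicate could be left out because each genotype and sort has 1 library. Depth limits *Atf3* in most types.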
